A study of Mus musculus with 3 samples.

Results

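The genes Ky, Padi2, Cables1 and Mmp9 carried several times more H3K36me3 in Treg cells of the large intestine than in those of the spleen. They were picked for that difference, so the contrast between the tissues is given here as a description and has no test. Their members in the data are the ChIP-seq peaks whose midpoint lies in the body of each gene, 91 of the 120910 peaks measured. Ky had 24 of them, Padi2 28, Cables1 37 and Mmp9 2. The series compared steady-state Treg cells of C57BL/6 mice that carry the Foxp3-YFP reporter, sorted as CD3+CD4+YFP+ cells from spleen or from large intestine (LI). The YFP allele also encodes Cre and is driven by Foxp3, and Setd2 was not deleted in these mice. Each tissue gave 1 library from the pooled cells of 7 female and 7 male mice. The methods give a general age range for mice of in vivo studies and none for this experiment by name. There is therefore no replicate, and differences between mice cannot be seen. A further library, unprecipitated input chromatin, was not analysed here.

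H3K36me3 is the trimethyl mark that the enzyme Setd2 places on histone H3 as it travels with elongating RNA polymerase. The mark therefore lies over the bodies of transcribed genes rather than at their promoters, and usually builds up toward the end of the gene. Treg cells restrain other immune cells, and those of the intestine adapt to barrier tissue. The 4 genes do unrelated work. Ky encodes kyphoscoliosis peptidase, a transglutaminase-like protein known from skeletal muscle, where it binds filamin. Padi2 encodes a peptidylarginine deiminase, which turns arginine into citrulline in histones and other proteins. Cables1 encodes an adaptor that couples cyclin-dependent kinases to the kinases that phosphorylate them. Mmp9 encodes gelatinase B, a secreted protease that cleaves denatured collagen and type IV collagen.

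To show what lies under the marked chromatin, the middle 250 bp of 1 peak of Ky, Padi2 and Mmp9 is printed. In each gene it is the peak with the highest lower bound of the ratio of LI over spleen, given its counting error, among the peaks that reach no untranslated region. The longer of the 2 Mmp9 peaks reaches one and was passed over. The bases were read from GRCm38, the assembly of mm10, on the plus strand, which is the coding strand of all 3 genes, and capitals mark CpG dinucleotides. The Ky window is chr9:102513554-102513803, the Padi2 window chr4:140935190-140935439 and the Mmp9 window chr2:164951216-164951465.
Ky, peak in intron 3: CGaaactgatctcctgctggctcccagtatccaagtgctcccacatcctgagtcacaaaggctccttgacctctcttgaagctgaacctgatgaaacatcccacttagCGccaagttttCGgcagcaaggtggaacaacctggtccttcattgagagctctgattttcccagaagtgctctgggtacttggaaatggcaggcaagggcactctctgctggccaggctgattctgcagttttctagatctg
Padi2, peak in intron 10: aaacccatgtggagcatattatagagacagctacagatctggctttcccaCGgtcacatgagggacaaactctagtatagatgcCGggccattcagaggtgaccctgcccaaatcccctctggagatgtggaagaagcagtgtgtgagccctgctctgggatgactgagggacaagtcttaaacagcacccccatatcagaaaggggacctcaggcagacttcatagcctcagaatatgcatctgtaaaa
Mmp9, peak in intron 8: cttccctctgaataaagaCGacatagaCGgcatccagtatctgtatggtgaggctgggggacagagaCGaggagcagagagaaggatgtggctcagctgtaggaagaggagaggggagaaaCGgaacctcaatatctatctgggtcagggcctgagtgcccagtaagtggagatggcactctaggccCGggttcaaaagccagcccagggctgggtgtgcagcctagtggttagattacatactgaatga
The windows had a GC content of 51.6% in Ky, 50% in Padi2 and 53.6% in Mmp9, and held 3, 2 and 5 CpG dinucleotides. The peaks around them were intronic by their midpoints although the Ky and Padi2 peaks each also covered 1 exon and the Mmp9 peak 2 exons. Each label names the intron of the midpoint alone, so a printed window can also hold exon bases. In spleen and LI the Ky peak had 1.88 and 18.9 RPKM, the Padi2 peak 2.49 and 15.7 RPKM, and the Mmp9 peak 3.97 and 19.5 RPKM. RPKM here is the mean read coverage of the peak scaled to the depth of its library.

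Ky (ENSMUSG00000035606.8) spans 40.5 kb of chromosome 9, from 102505750 to 102546239 on the plus strand, with 11 exons in its principal transcript. Summed over its 24 peaks, spleen had 53.0 RPKM and LI had 371.9 RPKM. That is a 6.74-fold difference, or 2.75 on the log2 scale (2.44 to 3.07, the 95% interval that counting error allows, here and in all later brackets). All log2 ratios are LI over spleen after each library was scaled to its total over all peaks, with 0.5 RPKM added to each value. The lowest, median and highest peak of Ky had 0.52, 1.84 and 4.94 RPKM in spleen and 8.49, 15.0 and 22.3 RPKM in LI. Of its 24 peaks, 24 were higher in LI, compared with 49.0% of all peaks in the series. Peaks covered 61.2% of the gene body. The same share was 33.8% in Padi2, 15.3% in Cables1 and 32.6% in Mmp9.

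The largest peak of Ky was 4307 bp long, lay around 21.9 kb from the start and had 3.14 RPKM in spleen and 18.3 RPKM in LI, a log2 ratio of 2.33 (1.85 to 2.80). The strongest peak was the same in both tissues, 326 bp in intron 8 at 30.2 kb, with 4.94 and 22.3 RPKM (2.02, 0.62 to 3.43). It also had the smallest ratio among the 7 Ky peaks with at least 20 RPKM over both libraries. The largest ratio among these belonged to a neighbouring peak of 220 bp in the same intron, with 1.53 and 20.4 RPKM (3.32, 0.41 to 6.23). The intervals of this pair overlap widely, so the data do not separate them. The 8 Ky peaks of at least 1 kb, which rest on the most reads, had log2 ratios between 2.06 and 2.99.

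Padi2 (ENSMUSG00000028927.6) spans 46.2 kb of chromosome 4, from 140906344 to 140952586 on the plus strand, with 16 exons. Its 28 peaks summed to 96.8 RPKM in spleen and 388.2 RPKM in LI, a 3.87-fold difference with a log2 ratio of 1.95 (1.66 to 2.24). The lowest, median and highest peak had 0.20, 3.43 and 7.26 RPKM in spleen and 6.27, 14.1 and 21.8 RPKM in LI. Of its 28 peaks, 28 were higher in LI than the same peak in spleen, compared with 49.0% of all peaks. The peak strongest in LI was 489 bp in intron 3, with 3.98 and 21.8 RPKM (2.28, 1.02 to 3.54). It had the largest ratio among the 5 Padi2 peaks with at least 20 RPKM.

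The peak of Padi2 strongest in spleen was another one, the last of the gene. It was 1670 bp long, had its midpoint in the untranslated region of the final exon and measured 7.26 RPKM in spleen and 17.8 RPKM in LI. Its log2 ratio of 1.20 (0.66 to 1.74) was the smallest of the 17 peaks of at least 1 kb in the 4 genes. This peak also overlaps Gm13031, a non-coding gene on the other strand from 140947666 to 140957902. ChIP-seq has no strand, so the marks of Padi2 and Gm13031 cannot be told apart there. The other 3 Padi2 peaks of at least 1 kb had log2 ratios of 1.93, 2.40 and 1.93.

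Cables1 (ENSMUSG00000040957.15) is the longest of the 4, 106.4 kb of chromosome 18 from 11839220 to 11945630 on the plus strand, with 9 exons. Its 37 peaks summed to 66.7 RPKM in spleen and 446.2 RPKM in LI, a 6.44-fold difference with a log2 ratio of 2.69 (2.34 to 3.03). The lowest, median and highest peak had 0, 1.86 and 4.75 RPKM in spleen and 7.51, 11.3 and 18.8 RPKM in LI. All 37 peaks were higher in LI, compared with 49.0% of all peaks. Spleen was listed at 0 in 3 short peaks, in which LI had 11.1, 11.6 and 11.1 RPKM. Set against a spleen floor of 3 reads per peak, these LI values were 2.14-fold, 2.41-fold and 3.29-fold higher. The counting error of LI, with about 8.51, 9.61 and 13.1 reads, is not allowed for in these folds. Of the 37 peaks, 34 had their midpoint in an intron.

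The peak of Cables1 strongest in LI was its last, 1400 bp over the untranslated region of the final exon, with 2.22 RPKM in spleen and 18.8 RPKM in LI (2.79, 1.82 to 3.76). The largest ratio among its 2 peaks with at least 20 RPKM was 3.02 (0.17 to 5.87), from a 200-bp peak in intron 6 with 1.79 and 18.6 RPKM. The peak strongest in spleen lay in intron 3 and had 4.75 and 10.6 RPKM, with a log2 ratio of 1.03 (-0.17 to 2.23) that counting error does not separate from 0. Cables1 was the only one of the 4 with a peak at its start. That peak of 247 bp began 37 bp before the start and had 0.33 RPKM in spleen and 10.4 RPKM in LI, and it also overlaps the antisense gene Gm6277.

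Mmp9 (ENSMUSG00000017737.2) is the shortest, 15.1 kb of chromosome 2 from 164940780 to 164955850 on the plus strand, with 13 exons. Its 2 peaks were long and lay at the end of the gene. The first, 1011 bp with its midpoint in intron 8, had 3.97 RPKM in spleen and 19.5 RPKM in LI (2.12, 1.24 to 3.0). The second, 4182 bp, covered 5 exons, ended 282 bp past the gene, and had 3.37 RPKM in spleen and 15.8 RPKM in LI (2.03, 1.56 to 2.50). The sums were 7.34 and 35.3 RPKM, a 4.43-fold difference with a log2 ratio of 2.15 (1.62 to 2.67).

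**Figure D1:**
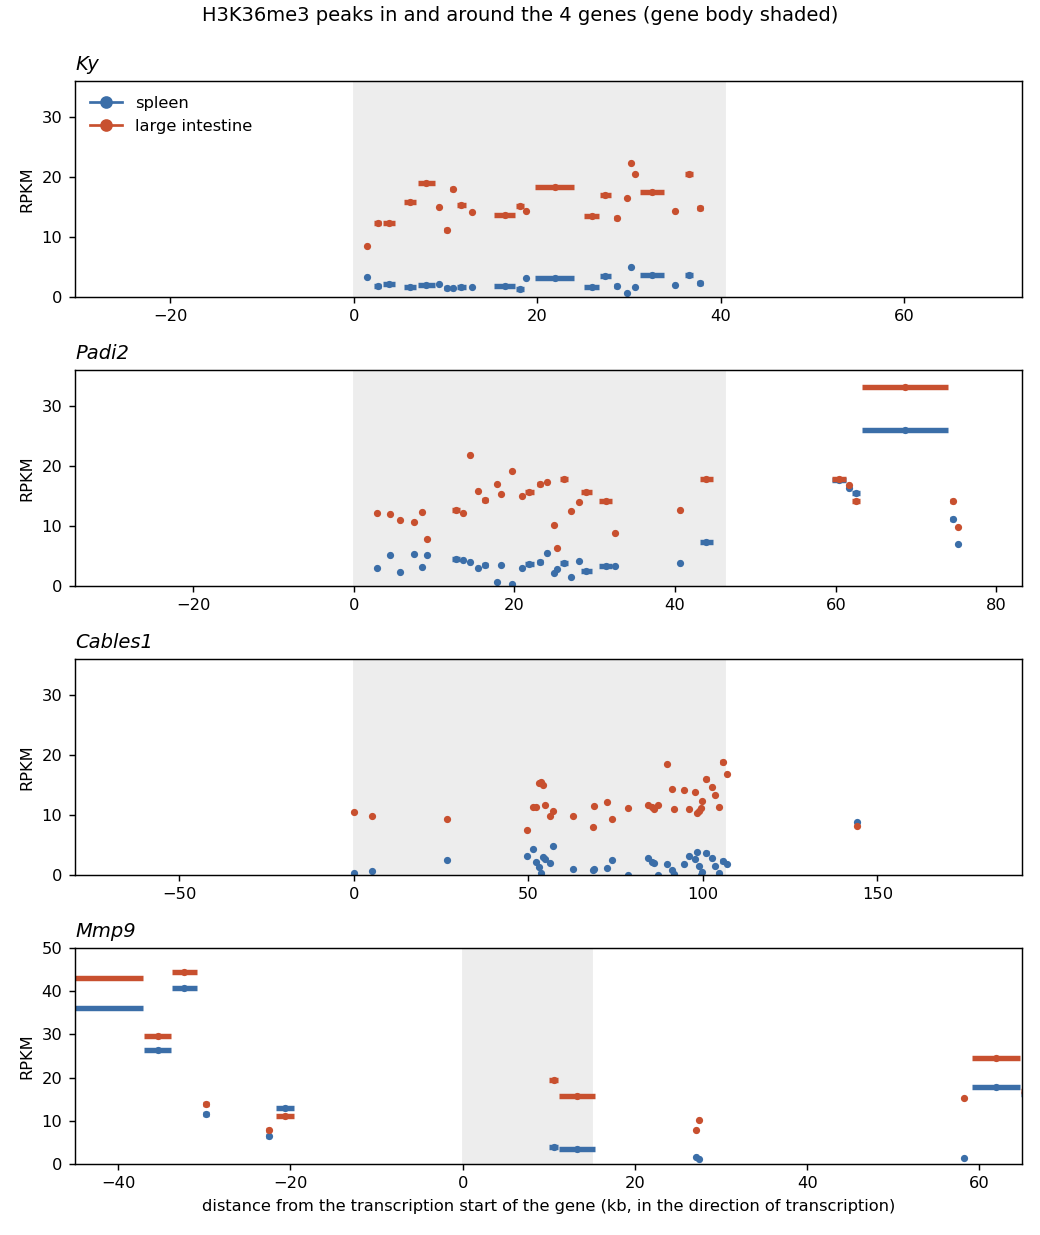
Each bar is 1 peak, drawn at its mean coverage in RPKM (vertical axis) against its distance in kb from the start of the gene (horizontal axis), with the gene body shaded, spleen in blue and large intestine in red. Within Ky and Cables1 every large intestine value lies above every spleen value, while Sdhb beyond Padi2 and Zfp335 before Mmp9 differ far less, with log2 ratios of 0.07 and 0.14 over their peaks.

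Taking all 91 peaks, 91 were higher in LI, compared with 49.0% of all peaks in the series. The difference was over 2-fold in 89, compared with 9.05% of all peaks, and over 4-fold in 61, compared with 1.23% of all peaks. Of the 17 peaks of at least 1 kb, 17 were over 2-fold, compared with 1.78% of all peaks of that length, and their log2 ratios ran from 1.20 to 2.99. Because the genes were chosen by these values, the counts describe the genes and support nothing about them. The length of a peak matters for its precision. The 74 shorter peaks had a median of about 2.43 reads in spleen and 16.3 in LI, whereas those of at least 1 kb had about 11.9 and 88.8. Of the 88 peaks with signal in both libraries, the counting interval lay above 0 in 55 and above a 2-fold difference in 23.

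Per base of peak, the mean signal in spleen was 2.16 RPKM in Cables1, 2.40 in Ky, 3.48 in Mmp9 and 3.86 in Padi2. These lie at percentiles 0.15, 0.17, 0.62 and 0.85 among the 9456 coding genes that reached 20 RPKM in spleen and LI together, that is, at the low end. In LI the means were 13 RPKM in Cables1, 14.9 in Padi2, 16.0 in Ky and 16.5 in Mmp9, or percentiles 46.0, 60.1, 66.6 and 68.9. The median coding gene had 12.7 RPKM in spleen and 13.5 in LI. Within their peaks, the 4 genes thus carried a low level of the mark in spleen and an ordinary, not a high, level in LI. Peaks covered from 15.3% of the body in Cables1 to 61.2% in Ky, so these are not levels of whole gene bodies. Picking genes for a high ratio of LI over spleen also favours low spleen values. Peaks were called in either tissue and then merged, so a region with a peak in LI alone also has a spleen value. More mark per cell cannot be told apart from more cells that carry the mark.

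**Figure D2:**
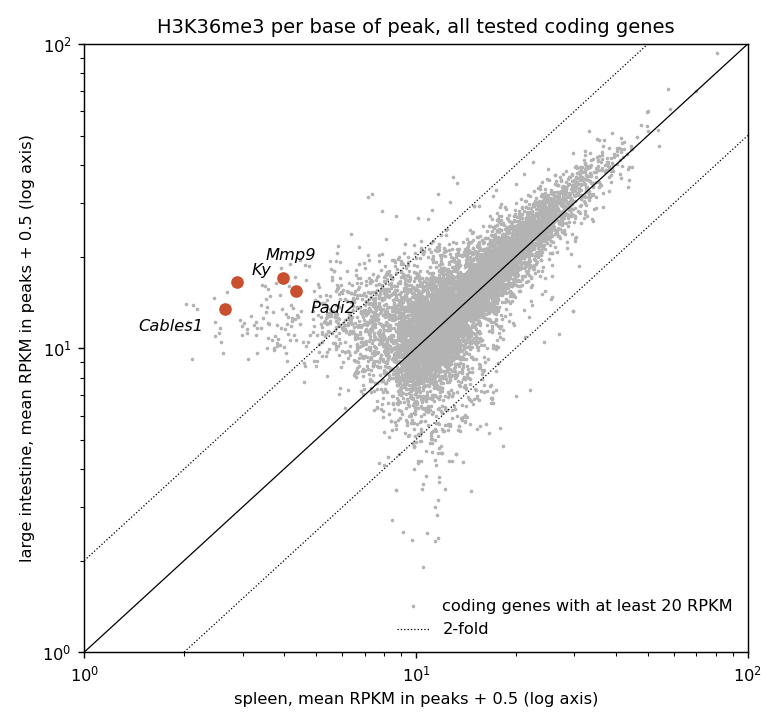
Each point is a coding gene, with its length-weighted mean RPKM plus 0.5 in spleen (horizontal, log axis) against large intestine (vertical, log axis), and dotted lines mark a 2-fold difference. Ky, Padi2, Cables1 and Mmp9 lie at the far left, with 2.16 to 3.86 RPKM in spleen, and at mid height, with 13 to 16.5 RPKM in large intestine.

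Of the 9456 coding genes, 306 (3.24%) were over 2-fold higher in LI and 171 (1.81%) over 2-fold higher in spleen. Ky stood at rank 5 by log2 ratio, Cables1 at rank 6, Mmp9 at rank 21 and Padi2 at rank 45. The counting intervals of Ky and Cables1 overlap almost wholly, and so do those of Mmp9 and Padi2, so neighbours in this order are not separated. The intervals of Ky and Padi2 do not overlap. The median coding gene had a log2 ratio of 0.0047, with quartiles at -0.20 and 0.23.

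The genes differed in the position of the mark along the body, which is given as a description. Each body was divided into 5 equal parts from start to end. Among 5953 coding genes with at least 5 peaks, the mean share of LI signal, weighted by peak length, rose from 6.69% in part 1 to 34.7% in part 5. In Cables1 part 5 held 18 of the 37 peaks, with 63.6% of the LI signal and 59.1% of the spleen signal. A stretch of 22.7 kb without a peak began 26.9 kb into Cables1. In Mmp9, parts 1 to 3 had no peak, and part 5 held 76.9% of the LI and 77.8% of the spleen signal. These shares follow where peaks were called and how long they are. Both tissues were measured over the same merged peaks, so like shares in spleen and LI are no separate result. Per base of peak, parts 1 to 5 of Cables1 had 0.48, 2.50, 2.52, 1.65 and 2.20 RPKM in spleen. In LI they had 10.1, 9.29, 11.9, 10.7 and 14.2 RPKM. Part 5 of Cables1 was thus its highest in LI but not in spleen. Parts 4 and 5 of Mmp9 had 3.97 and 3.37 RPKM in spleen and 19.5 and 15.8 RPKM in LI, lower in part 5 in both tissues.

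Ky and Padi2 were filled differently. In Ky part 1 already held 22.1% of the LI signal and part 5 only 20.1%, and the largest share, 32.1%, lay in part 3. Padi2 likewise had its largest LI share in part 3, 32.0%, with 7.89% in part 1 and 15.4% in part 5. A stretch of 7.74 kb without a peak began 32.7 kb into Padi2. The first peak began 1.30 kb from the start in Ky, 2.75 kb in Padi2 and 10.1 kb in Mmp9.

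The ratio of the tissues was much the same along Ky, with log2 ratios of 2.58, 3.08, 2.62, 2.80 and 2.45 in parts 1 to 5 and overlapping intervals. In Padi2 it was 1.41, 2.17, 2.26, 1.92 and 1.37, lower at both ends, with part 1 at 0.66 to 2.17 and part 5 at 0.77 to 1.97. These intervals still overlap those of the middle parts. In Cables1 it was 3.83, 1.66, 2.21, 2.82 and 2.87, but parts 1 and 2 held 2 and 1 peaks. The interval of part 1 ran from 0.67 to 6.99 and that of part 2 from -0.31 to 3.64, which holds 0. In Mmp9 the filled parts had 2.12 and 2.03. Across the coding genes, the median ratio moved from -0.07 in part 1 to 0.03 in part 5.

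**Figure D3:**
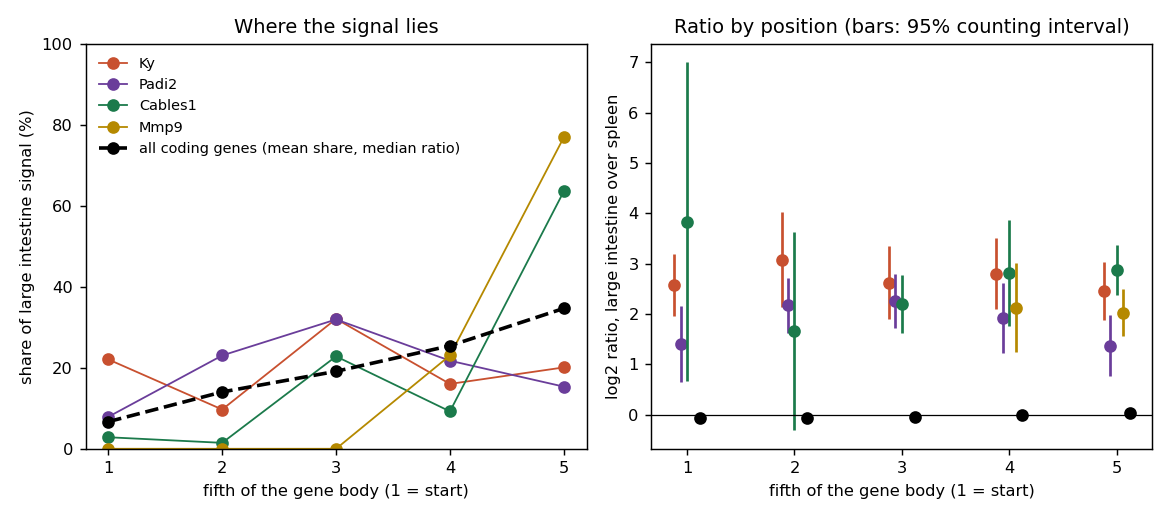
The left panel gives the share of large intestine signal in percent for each of 5 equal parts of the gene body, and the right panel the ratio of large intestine over spleen on the log2 scale with approximate 95% counting intervals, with all coding genes in black. Cables1 and Mmp9 rise to 63.6% and 76.9% in part 5, where the mean is 34.7%, whereas Ky and Padi2 peak in part 3. That mean is over coding genes with at least 5 peaks, a set without Mmp9, which has 2 peaks. The ratio of every filled part of the 4 genes, picked for a high ratio, lies above that of all coding genes. The interval of part 2 of Cables1 holds 0.

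The nearest coding genes on either side were set beside each gene. Genes and intergenic stretches without a peak gave no value, so where the difference ends cannot be told. No coding gene overlaps any of the 4. Ky lies between Ephb1, an ephrin receptor gene 151 kb before it that had no peak, and Cep63, a centrosome gene 38.3 kb after it. Cep63 had 277.2 RPKM in spleen and 293.7 RPKM in LI over 27 peaks, a log2 ratio of 0.04 (-0.14 to 0.22), with 14 of 27 peaks higher in LI. Ky was picked for its high ratio, so its distance from Cep63 is a description and no test.

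Padi2 lies between Padi1, its paralogue 60.6 kb away, which had no peak, and Sdhb, a subunit gene of mitochondrial succinate dehydrogenase that starts 8.62 kb past the end of Padi2. Sdhb had 75.4 and 81.9 RPKM over 4 peaks (0.07, -0.15 to 0.29). Padi2, with 1.95 (1.66 to 2.24), was picked for its ratio too, so this gap is likewise no test. No peak fell in the intergenic stretches on either side of Padi2.

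Cables1 lies between Rbbp8, a DNA-end resection gene 94.0 kb away with 28.9 and 20.4 RPKM over 3 peaks (-0.54, -1.35 to 0.27), and Tmem241, 18.8 kb away with 55.5 and 65.9 RPKM over 6 peaks (0.20, -0.28 to 0.69). Both intervals hold 0. A single peak just past the annotated end of Cables1 had 1.75 RPKM in spleen and 16.9 RPKM in LI, a log2 ratio of 2.91, so the difference ran slightly beyond the gene.

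Mmp9 was the exception. Before it Zfp335, a zinc-finger gene 29.0 kb away, had 114.9 and 130.9 RPKM over 4 peaks (0.14, 0.02 to 0.26), and the 2 peaks between them summed to 19.5 and 18.9 RPKM. On the other, nearer side Slc12a5, the gene of a potassium-chloride cotransporter known from neurons, starts 4.95 kb past Mmp9. Its 3 short peaks had 1.65, 1.19 and 1.32 RPKM in spleen and 7.77, 10.2 and 15.2 RPKM in LI. Their sums of 4.15 and 33.2 RPKM gave a log2 ratio of 2.81 (1.19 to 4.43), whose interval overlaps that of Mmp9. Higher signal in LI was therefore measured in Mmp9 and in the gene after it, though no peak fell between them. Slc12a5 reached 20 RPKM only through LI, and its peaks of 252 to 281 bp held little spleen signal. The peak with 15.2 RPKM in LI lay 43.1 kb past the end of Mmp9, beside an Ncoa5 peak with a log2 ratio of 0.40.

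**Figure D4:**
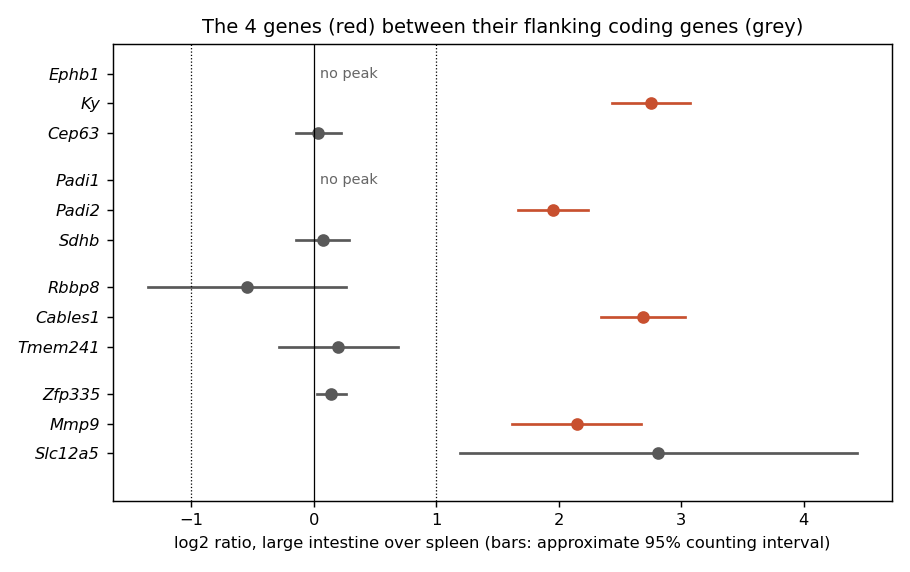
Log2 ratios, large intestine over spleen (horizontal axis), are drawn for the 4 genes in red and for the nearest coding genes in grey, with approximate 95% counting intervals as bars and dotted lines at a 2-fold difference. Cep63, Sdhb, Rbbp8, Tmem241 and Zfp335 lie between -0.54 and 0.20. Slc12a5 is the flanking gene that lies with its neighbour, at 2.81, on only 4.15 RPKM in spleen.

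Relatives of the 4 genes were taken as lists by family and partner, without the 4 themselves. The other 4 peptidylarginine deiminase genes, Padi1, Padi3, Padi4 and Padi6, had no peak in either tissue. Of 22 matrix metalloproteinase genes in the annotation, Mmp9 included here, 5 had a peak, compared with 10037 of 21951 coding genes. Of the 3 tested besides Mmp9, 0 were past 2-fold. Of all coding genes tested, 3.24% were past it in LI and 1.81% in spleen, so a count of 0 says little here. Mmp14, a membrane-anchored collagenase, had a log2 ratio of 0.89, Mmp23 0.95 and Mmp21 -0.72. Among the inhibitors of these proteases, Timp2 had 228.6 RPKM in spleen and 334.5 RPKM in LI (0.50), and Reck, a membrane-bound inhibitor, had 84.9 and 45.2 RPKM (-0.95). The 2 inhibitors with signal thus lay on opposite sides, and neither was past 2-fold.

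Among the Cables family and the partners of cyclin-dependent kinases, 8 other genes were tested, with a median log2 ratio of 0.07. Past 2-fold was 1 of them, Cdkn1a, which encodes the cell-cycle inhibitor p21, with 24.8 RPKM in spleen and 82.0 RPKM in LI (1.66, 1.12 to 2.19), compared with 3.24% of all coding genes past 2-fold in LI. The paralogue Cables2 had 0.61, and Cdk5, the kinase for which Cables1 is named, 0.58. Flna, the gene of a filamin that crosslinks actin, had a log2 ratio of -0.21.

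The coding genes with at least 200 RPKM whose mean levels in both tissues were most like those of the 4 are named by their distance on the log2 scale. Nearest to Mmp9, at 0.095, was Epas1, which encodes the oxygen-regulated factor HIF-2 alpha and had 126.3 RPKM in spleen and 604.5 RPKM in LI (2.21, 1.96 to 2.46). Padi2 and Hip1 followed at 0.19 and 0.23. Nearest to Padi2 were Hip1, an endocytic adaptor gene, at 0.16, with 189.1 and 731.1 RPKM (1.90, 1.71 to 2.10), then Rgs9 at 0.16 (1.63) and Rasgrp4 at 0.19 (1.63).

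Nearest to Cables1 was Ahrr, the gene of the aryl hydrocarbon receptor repressor, at 0.29. Ahrr had 30.6 RPKM in spleen and 263.1 RPKM in LI, a log2 ratio of 3.04 (2.54 to 3.53). Ky followed at 0.32 and Epas1 at 0.58. For Ky the nearest were Cables1 at 0.32, Epas1 at 0.38 and Ahrr at 0.51. Likeness in level over 2 libraries is a description of those levels alone.

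Base composition differed between the peaks of these genes and others. The median GC content of a peak was 52.1% in Ky, 54.3% in Padi2, 51.2% in Cables1 and 53.1% in Mmp9, compared with 46.5% over all peaks. GC-rich peaks leaned to LI across the series: the median log2 ratio was -0.41 in the lowest of 10 equal bins of GC and 0.29 in the highest. With that trend subtracted peak by peak, the log2 ratio was 2.58 in Ky, 1.73 in Padi2, 2.57 in Cables1 and 1.97 in Mmp9. Of the 91 peaks, 91 were still higher in LI and 83 over 2-fold, compared with 49.9% and 8.63% of all peaks after the same correction.

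**Figure D5:**
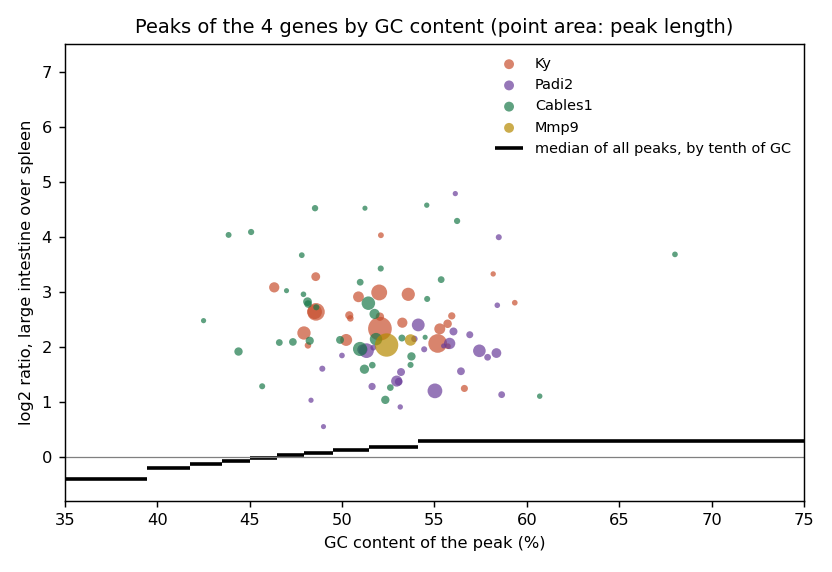
Each point is a peak of the 4 genes, with its GC content in percent (horizontal axis), its log2 ratio, large intestine over spleen (vertical axis), and an area that grows with its length, and black lines give the median of all peaks in 10 equal bins of GC. The medians run from -0.41 to 0.29, below every peak of the 4 genes.

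The label of the cells was checked against marker genes. Of 8 T cell markers, 8 carried peaks, with sums of 1183 RPKM in spleen and 1081 RPKM in LI, and of 6 Treg cell markers, 6 did, with 1807 and 1520 RPKM. Ikzf2 alone made up 1205 and 851 RPKM of the latter, and 3 of the 6 were higher in LI, with a median log2 ratio of 0.06. Foxp3 had 132.5 and 156.3 RPKM (0.19). Of 10 neutrophil markers, S100a8, Ly6g and Mpo among them, 0 had a peak. Of all 21951 annotated coding genes, 10037 had a peak, so its lack in a marker says little about the presence of a cell type. Of 10 macrophage and dendritic cell markers, 2 had a peak, Csf1r and Cd68, with summed levels of 29.7 and 31.3 RPKM. Of 6 mast cell and basophil markers, Kit alone had a peak, with 1.35 and 7.48 RPKM.

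Of 10 intestinal epithelium markers, 3 had a peak, with summed levels of 37.2 RPKM in spleen and 72.8 RPKM in LI, a log2 ratio of 0.92. Epcam had 25.3 and 47.2 RPKM, while Cdh1, Krt8 and Muc2 had none. Of 10 stroma and muscle markers, 2 had a peak, Acta2 and Col1a1, with sums of 55.7 and 83.7 RPKM. They moved in opposite directions, with log2 ratios of -0.44 in Acta2 and 0.94 in Col1a1. The muscle genes Acta1, Ckm and Myog had no peak. Of 7 B and plasma cell markers, 3 had a peak, with sums of 60.2 and 53.4 RPKM. Cd79a was lower in LI, with 47.2 and 29.8 RPKM. Cd79b had 8.96 and 13.7 RPKM and Pax5 4.05 and 9.91 RPKM, both higher in LI. The part of other cells in the values of the 4 genes was not tested.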

How the data were processed

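H3K36me3 ChIP-seq libraries of splenic and intestinal Treg cells were compared, 1 per tissue. The authors aligned 75-nt single-end reads to mm10 (the submitters' processing notes name Bowtie2), called peaks with MACS2, merged them with bedtools and averaged RPKM coverage tracks over each merged peak. The deposited values are mean RPKM coverage per peak, although the table is described as counts. They are not whole numbers, and reads per peak could not be recovered, so no count test was run. The smallest step of the values corresponds to a depth of 29600000 reads in spleen and 38100000 in LI.

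Chromosome names and lengths were checked against GRCm38: no peak ran past the end of any of 21 chromosomes. Peaks were placed in GENCODE M21 gene bodies by midpoint, and their values were summed per gene. Columns were scaled to their totals over all peaks (log2 ratio of totals 0.046), and log2((LI + 0.5)/(spleen + 0.5)) was taken in genes that reached 20 RPKM in both libraries together. Fold changes are on this scale, which understates the change of low values. Mean levels are weighted by peak length. Intervals of 95% take each read as covering 200 bp, treat reads as independent molecules and cover counting error only. No p-value was computed. GC correction subtracted the median ratio of all peaks in 10 bins of GC content. The 4 genes and all lists were chosen with earlier results of these data known. Named peaks were the strongest in each library and those of largest and smallest ratio among peaks with at least 20 RPKM. Named genes were the 4, the nearest coding gene on each side, list genes past 2-fold, and the 3 genes nearest in level, and other list genes were named as examples after their values were seen. A further list gene is not reported here. The steps ran in Python 3.11.15 with pandas 2.3.3 and numpy 2.4.6 and were tested on simulated data.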

Additional observations from a re-analysis of the deposited data

How the results depend on the processing

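With 1 library per tissue, no difference here has a replicate check, and no library could be left out. No paired analysis was possible because each tissue has a single library. Of 98 alternative values, 89 stayed within their limits. Of 48 alternative ratios of the 4 genes, 46 stayed within the counting interval and 0 changed sign. Some of these kept the same peaks and so could not move. They were any overlap and peaks in no other coding gene for all 4 genes. For Mmp9 they were also peaks of at least 1 kb and the nearest transcript start. Over 12 alternatives the log2 ratio ran from 2.02 to 2.80 in Ky, 1.73 to 2.28 in Padi2, 2.40 to 2.89 in Cables1 and 1.67 to 2.19 in Mmp9. The strongest peak alone gave 2.02 in Ky and 2.28 in Padi2. Assignment to the nearest transcript start left Cables1 3 peaks, because most fell to AC100751.1, a short gene inside it. With the body divided into 2 equal parts, the last minus the first part of Cables1 gave 0.45 in place of -0.96, and parts 1 and 2 of the 5 rest on 3 peaks. Mmp9 has peaks in the later of these only, so this value could not be formed there. GC correction turned Sdhb to -0.065 and Zfp335 to -0.031. Coding genes over 2-fold numbered 470 in LI and 307 in spleen without a filter, and 68 and 37 with at least 200 RPKM. Depth limits the short peaks most, with about 2.43 reads in spleen at the median.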
